A study of Mus musculus with 20 samples.

Results

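The apolipoproteins described here are 10 genes, APOA1, APOA2, APOA4, APOA5, APOB, APOC1, APOC3, APOE, APOH and APOM, each found by its gene name, ignoring case, among the 60607 human genes of the humanized livers and the 55335 mouse genes of the WT livers. All 10 were listed once in both species. With a mean of at least 1 TPM (reads scaled by gene length so that each liver adds up to 1000000), 9 of the 10 human genes and all 10 mouse genes could be tested, among 12738 human and 15090 mouse genes. A gene is written as called where the limma test of log2(TPM + 1) gave an unadjusted p under 0.05. The p adjusted over all genes (Benjamini-Hochberg) is given beside it for called members, and for only some of the other genes.

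Apolipoproteins are the protein components of lipoprotein particles, which carry triglyceride and cholesterol through the blood. APOB is the structural protein of the particles that the liver secretes as very low density lipoprotein, whereas APOA1 and APOA2 are the main proteins of high density lipoprotein. The smaller exchangeable apolipoproteins move between particles and set how fast lipoprotein lipase empties them and how the liver takes them up again, and most of them are made in hepatocytes.

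The study silenced HuR, an RNA-binding protein that attaches to AU-rich stretches of mRNA and is encoded by ELAVL1, in livers built from human hepatocytes and in mouse livers, to compare the responses of human and mouse genes in vivo. Adenovirus carrying an shRNA against HuR (HuR KD) or a LacZ control virus was injected intravenously at 2000000000 pfu per mouse, and total RNA of livers collected at day 7, when the mice had fasted for 4 h, was sequenced from strand-specific libraries. There were 4 humanized HuR KD, 4 humanized LacZ, 6 WT HuR KD and 6 WT LacZ livers, 20 in all, each from 1 mouse. The virus carried a different shRNA sequence for each species, so that in every comparison of the 2 sets the species, the shRNA and the host cannot be told apart.

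WT livers came from male C57BL/6 mice with no transgene. Humanized livers came from TK-NOG mice, which lack most of their immune cells and carry a herpes simplex virus thymidine kinase transgene driven by a mouse albumin promoter, so that ganciclovir kills the hepatocytes that express it. The hosts received ganciclovir at 25 mg/kg at 8 to 9 weeks of age and then 1000000 cryopreserved human hepatocytes through the spleen, and mice with more than 0.5 mg/ml human albumin in serum 8 to 12 weeks later were used. The hepatocytes came from few donors, whose number is not given in the sources used here, so that humanized livers may share a donor. The remaining host hepatocytes and the other host cells of these livers are mouse cells, and only human genes are listed in the humanized table. All 6 hepatocyte markers were found in the human table, all 5 T and NK cell markers and 3 of 7 Kupffer cell markers (CLEC4F, MARCO and VSIG4) were at 0 in every liver, and the 6 endothelial markers summed to less than 1 TPM in each. Human cholangiocyte markers summed to 5.46 to 26.9 TPM with HuR KD and 11.6 to 35.9 TPM with LacZ. Stellate cell markers summed to 1.2 to 4.58 and 1.29 to 3.35 TPM, and Kupffer cell markers to at most 4.83 TPM. Whether these reads came from human cells other than hepatocytes was not tested.

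HuR mRNA was lower with HuR KD in both sets, and its adjusted p was under 0.05 in WT livers only. Human ELAVL1 was at 4.05, 2.37, 3.54 and 3.9 TPM in the HuR KD livers and at 5.76, 4.77, 6.17 and 5.99 TPM in the LacZ livers, a log2 fold change of -0.59 (SE 0.17), and mouse Elavl1 changed by -0.83 (SE 0.09), with no overlap between the groups in either species. By limma the p was 0.0063 (adjusted p = 0.214) for ELAVL1 and 4.67e-07 (adjusted p = 0.0011) for Elavl1. Groups did not overlap for 7.16% of all human and 2.49% of all mouse genes tested. The reads on genes recovered from the TPM ranged from 2670978 to 20306600 per humanized liver and from 1423963 to 44668562 per WT liver. Humanized HuR KD liver 4 and humanized LacZ liver 2 stood apart from the others, with 49.1% of their TPM in mitochondrial ribosomal RNA each against at most 36% in the other 6, and their profiles were closer to each other (r = 0.965 across genes) than to their own groups. They also had the most reads, 20306600 and 19896001 against at most 8343890 in the other 6, and the part of depth in this correlation was not tested. WT LacZ liver 2, with the fewest reads, and WT HuR KD liver 6 had the lowest median correlation with the other WT livers (0.921 and 0.956). The results below were therefore also computed without these pairs of livers, an alternative chosen after the data were seen. In bulk tissue, fewer cells of a type and less RNA per cell cannot be told apart.

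The mouse members lie in 2 clusters and 4 single loci on GRCm38. Apoa1 (chromosome 9, 46228580 to 46230466), Apoc3 (46232933 to 46235636), Apoa4 (46240696 to 46243459) and Apoa5 (46268633 to 46271919) share 43340 bases of chromosome 9, with Apoc3 on the minus strand and the other 3 on the plus strand. Apoc1 and Apoe lie on the minus strand within 9708 bases of chromosome 7, from 19689481 to 19699188. Apoa2 is on chromosome 1, Apob on chromosome 12, Apoh on chromosome 11 and Apom on chromosome 17. The gene identifiers of all 10 were found with the same version in GENCODE M21.

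The 250 bases before the RefSeq start of Apoa5 are shown, since Apoa5 was the member that was called in both species. The window lies on the plus strand of GRCm38.p6, at chr9:46268358-46268607, before the first of the 2 starts that RefSeq gives, both of which lie at or before the GENCODE start. Capitals mark matches, on either strand, to TATAAA, the TATA box, or to CACGTG, an E-box.
Apoa5: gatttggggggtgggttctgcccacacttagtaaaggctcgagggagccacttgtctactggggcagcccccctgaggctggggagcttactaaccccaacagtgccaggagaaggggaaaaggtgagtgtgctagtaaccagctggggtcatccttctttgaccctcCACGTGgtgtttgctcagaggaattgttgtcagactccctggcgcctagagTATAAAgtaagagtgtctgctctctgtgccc
The TATA box of this Apoa5 window began 31 bases and its E-box 82 bases before the start. TATAAA was found upstream of 4 of the 8 members that had a window (Apoa2, Apoa5, Apob and Apoe), against 12.4% of all 32851 windows of this length. The 8 members had 12 windows and are counted as genes, whereas the percents are of single windows, so that the 2 are not like measures. CACGTG was found in Apoa5 alone among the 8 (6.02% of all windows), CAAAGT, the core of hepatocyte nuclear factor 4 sites, in Apoa4 alone (12.6%), whose RefSeq start lies within the GENCODE gene, and TGACGT, the core of cyclic AMP response elements, in 0 of the 8 (6.47%).

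The 3′ untranslated regions of the mouse members were mostly short. They ranged from 64 bases in Apoa1 to 285 bases in Apob, with Apoa5 at 1185 bases, and their median was 141 bases against 850 bases over 20660 protein-coding genes. The pentamer ATTTA, the simplest AU-rich element, was found in 0 of the 10, against 62.8% of all genes. Among genes whose region was as short as those of the 9 shorter members it was found in 21.8%, and among genes within 100 bases of the length of Apoa5 in 81.5%. These letters are only absent from the annotated transcript examined, and human transcripts were not used here.

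Knockdown of HuR in humanized livers gave 1 call among the 9 apolipoproteins tested, APOA5, which was higher. APOA5, which promotes the clearance of triglyceride-rich particles and of which the liver makes little compared with other apolipoproteins, was at 314, 365, 578 and 426 TPM in the HuR KD livers and at 106, 252, 247 and 137 TPM in the LacZ livers. All 4 HuR KD livers were above all 4 LacZ livers. The log2 fold change was 1.23 (SE 0.31, 95% interval 0.54 to 1.93), which is 2.35-fold, with p = 0.0030 and an adjusted p of 0.153 by limma, and p = 0.029 in the two-sided exact permutation test, the smallest p that 4 against 4 livers allow. Genes called at p under 0.05 made up 11.5% of all 12738 human genes tested, so that 1 call in 9 was close to the share over all genes. Genes whose groups did not overlap made up 7.16%. Genes with an adjusted p under 0.05 made up 0.212%, and 0 of the 9 apolipoproteins were among them. Without the 2 humanized livers that stood apart, the log2 fold change of APOA5 was 1.40, with an adjusted p of 0.105 by limma. The adjusted p ranged from 0.0674 to 0.433 over all 21 settings fitted, with the unadjusted p under 0.05 in each.

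APOC3, an inhibitor of lipoprotein lipase and of the uptake of particle remnants, was at 4057, 4811, 6043 and 5438 TPM in the HuR KD livers and at 3248, 4014, 4250.3 and 4039 TPM in the LacZ livers. The 3 highest HuR KD livers were above every LacZ liver, and HuR KD liver 1 was within their range. The log2 fold change of 0.38 (SE 0.17) missed the threshold, with p = 0.052 by limma (adjusted p = 0.437) and p = 0.057 in the exact test, and it passed the threshold in 5 of the other 20 settings. The lowest p of these was 0.0115, with median-of-ratios scaling.

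The particle proteins did not pass the test in humanized livers. APOB was at 1603, 1313, 1604 and 1455 TPM in the HuR KD livers and at 1575, 1171, 1472 and 1765 TPM in the LacZ livers, and its log2 fold change was 0.01 (SE 0.16, 95% interval -0.35 to 0.37). APOA1 varied between 2691 and 9737 TPM in the 4 LacZ livers alone, more than 3-fold, and its difference of 0.11 had an interval from -0.79 to 1.02. The lowest APOA1 levels, 3753 and 2691 TPM, were those of the 2 livers that stood apart. APOA2 was at 7536 ± 1126 TPM (SD, n = 4) with HuR KD and at 7829 ± 1362 TPM with LacZ, a log2 difference of -0.05 (SE 0.18) whose sign turned under 4 other scalings.

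The remaining exchangeable members were likewise within the spread. APOE, the ligand by which remnants bind to liver receptors, was at 2197 ± 266 and 1971 ± 258 TPM (log2 fold change 0.16, SE 0.16). APOC1, an inhibitor of remnant uptake and of cholesteryl ester transfer, was at 2705 ± 262 and 2533 ± 362 TPM (0.10, SE 0.15), and a pseudogene copy, APOC1P1, was listed at 37.7 to 103 TPM, so that reads may be split between them. APOH, also called beta-2-glycoprotein I and a phospholipid-binding plasma protein, was at 4780.1 ± 946 and 4667 ± 1455 TPM (0.07, SE 0.25). The intervals of these 3 genes ran from -0.51 to 0.64 on the log2 scale at their widest.

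APOA4, which is made mainly in the intestine in people and is carried on chylomicrons and high density lipoprotein, was the least settled of the 9. It was at 4.36, 30.6, 38.6 and 71.4 TPM in the HuR KD livers and at 10.1, 113, 36.9 and 7.5 TPM in the LacZ livers, a range of 15.1-fold among the controls. The 2 highest values belonged to the livers that stood apart, and the lowest, 4.36 TPM, rested on 10 reads. Its log2 fold change of 0.06 had a 95% interval from -2.09 to 2.21, and its sign depended on single livers.

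APOM, a lipocalin that carries sphingosine 1-phosphate on high density lipoprotein, was listed at 1.55, 0, 1.75 and 0.729 TPM in the HuR KD livers and at 0.208, 0.589, 0 and 1.49 TPM in the LacZ livers, on at most 10 reads, and was not tested. The mouse gene was at 353 to 541 TPM in every WT liver. Of 12 other protein-coding genes within 100 kb of Apom in the mouse that had a human gene of the same symbol and a median of at least 1 TPM in WT livers, 11 were below 1 TPM in all 8 humanized livers. They included CSNK2B, a ubiquitous kinase subunit, and ABHD16A, both at 0 in every humanized liver and at medians of 72.9 and 23.2 TPM in WT livers. The human value of APOM is therefore given only as listed, and whether reads of this region were lost in alignment was not tested.

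**Figure D1:**
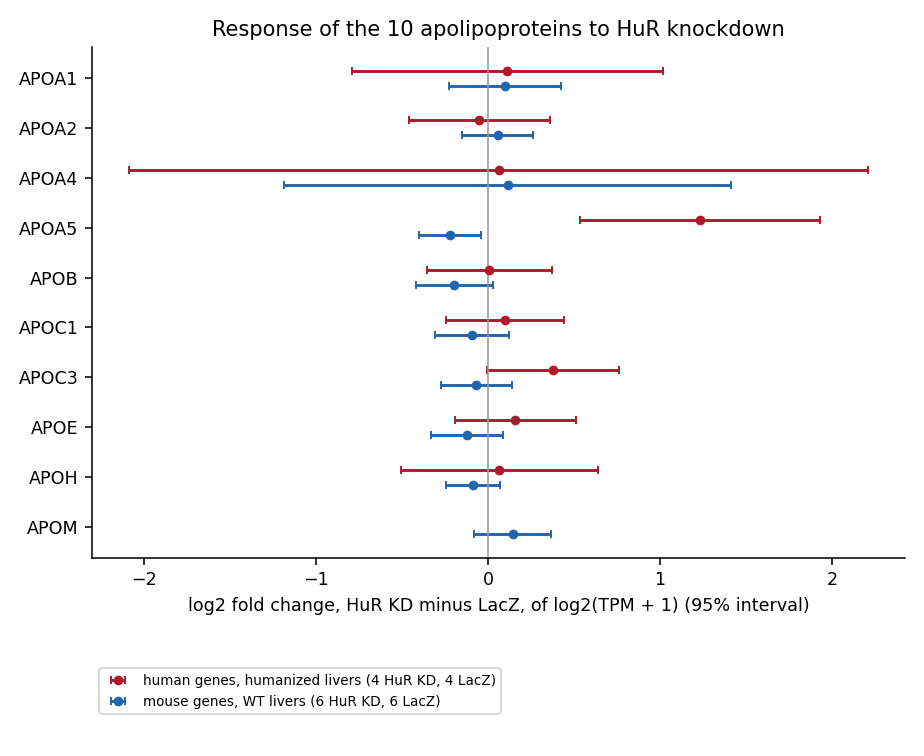
Log2 fold change (HuR KD minus LacZ, of log2(TPM + 1)) of each apolipoprotein in humanized (red) and WT (blue) livers; points are limma estimates and bars their 95% intervals. Human APOA5 (1.23) and mouse Apoa5 (-0.22) are the 2 whose intervals exclude 0, on opposite sides, and human APOM was not tested.

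Knockdown of HuR in WT livers gave 1 call among the 10 mouse apolipoproteins, again Apoa5 and in the other direction. In the 6 HuR KD livers the lowest, median and highest Apoa5 levels were 1133, 1232 and 1473 TPM, and in the 6 LacZ livers 1369, 1452 and 1667 TPM. The groups overlapped, with 4 of the 6 HuR KD livers below every LacZ liver. The log2 fold change was -0.22 (SE 0.08, 95% interval -0.40 to -0.04), a level 0.859 times that of the controls, with p = 0.0206 and an adjusted p of 0.216 by limma and p = 0.0238 in the exact test. Called genes made up 16% of the 15090 mouse genes tested, non-overlapping genes 2.49% and genes past the adjusted threshold 0.888%, so that 1 call in 10 was no more than the share over all genes. Without WT HuR KD liver 1 the p was 0.0504. Over all 25 settings the adjusted p ranged from 0.0267 to 0.440.

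None of the other mouse members passed the test. Apob was at 2592, 3520.4 and 3712 TPM (lowest, median and highest) with HuR KD and at 3176, 3982 and 4205 TPM with LacZ, a log2 fold change of -0.20 (SE 0.10, adjusted p = 0.394 by limma, p = 0.069 in the exact permutation test). WT HuR KD liver 6 had the lowest value of the 12, and WT LacZ liver 2 the lowest of the controls. Without these 2 livers, which stood apart, the log2 fold change was -0.18 and passed the unadjusted threshold. Apoc3 was at 2109, 2187 and 3055 TPM with HuR KD and at 2273, 2401 and 2707 TPM with LacZ. WT HuR KD liver 6 held the highest value of all, 4 of the other 5 HuR KD livers were below every LacZ liver, and the log2 fold change was -0.07 (SE 0.10) with all livers and -0.15 without liver 6, which passed the unadjusted threshold.

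The most abundant mouse members differed by little. Apoe was at 12362 ± 785 TPM (SD, n = 6) with HuR KD and at 13516 ± 1551 TPM with LacZ (log2 fold change -0.12, SE 0.10), Apoa2 at 18020.0 ± 753 and 17375 ± 1726 TPM (0.06, SE 0.10), and Apoa1 at 11036 ± 1525 and 10436 ± 2280.1 TPM (0.10, SE 0.15). Apoc1 was at 6444 ± 574 and 6899.7 ± 779 TPM (-0.10, SE 0.10) and Apoh at 2438 ± 202 and 2583 ± 143 TPM (-0.09, SE 0.07). Apom was at 465 ± 53.2 and 422 ± 62.8 TPM (0.15, SE 0.10). The 95% intervals of these 6 genes lay between -0.33 and 0.43.

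Apoa4 again varied most. It was at 441, 1207 and 3375 TPM (lowest, median and highest) with HuR KD and at 419.9, 730.0 and 3552 TPM with LacZ, a range of 8.46-fold among controls, so that its log2 fold change of 0.11 had an interval from -1.18 to 1.41. The 3 livers with the most Apoa4, LacZ liver 4, HuR KD liver 3 and LacZ liver 5, belonged to both groups and none of them was a liver that stood apart. They also held the 3 highest Apoa1 levels of the 12 livers, at 12424 to 13843 TPM against 7618 to 11269.6 TPM in the other 9. For Apom, LacZ liver 4 and HuR KD liver 3 held the 2 highest values (534 and 541 TPM). LacZ livers 4 and 5 were also among the 3 highest for Apob (4045 and 4011 TPM), and LacZ liver 5 for Apoc3 (2485 TPM). The Apoa2 levels of the 3 livers with the most Apoa4, 15549 to 17623 TPM, were not among the 3 highest, and neither were their Apoc1, Apoe and Apoh levels. The same livers were not singled out by Apoa5, which was at 1369 to 1491 TPM in them.

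**Figure D2:**
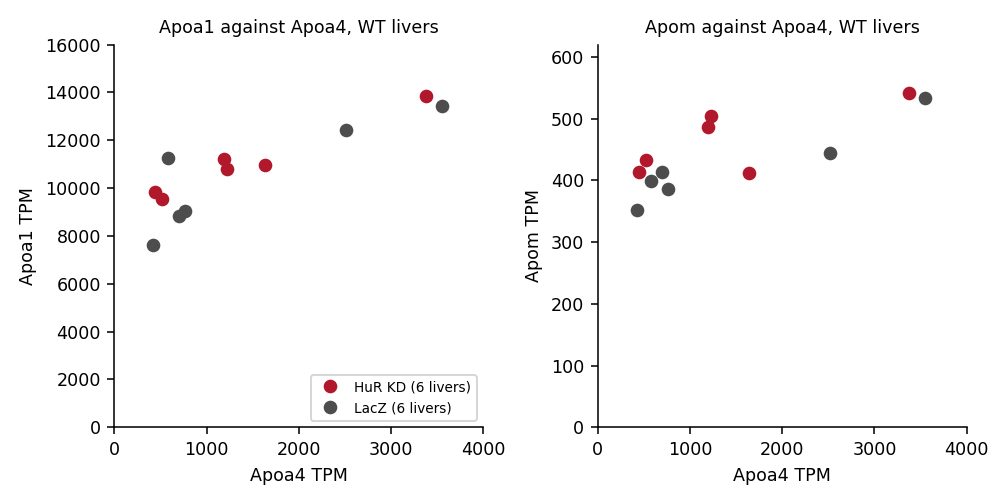
Apoa1 TPM (left) and Apom TPM (right) against Apoa4 TPM in the 12 WT livers, 1 point per liver, red for HuR KD and grey for LacZ. The 3 livers at 2513 to 3552 TPM of Apoa4 have the 3 highest Apoa1 levels, and both groups are represented among them.

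**Figure D3:**
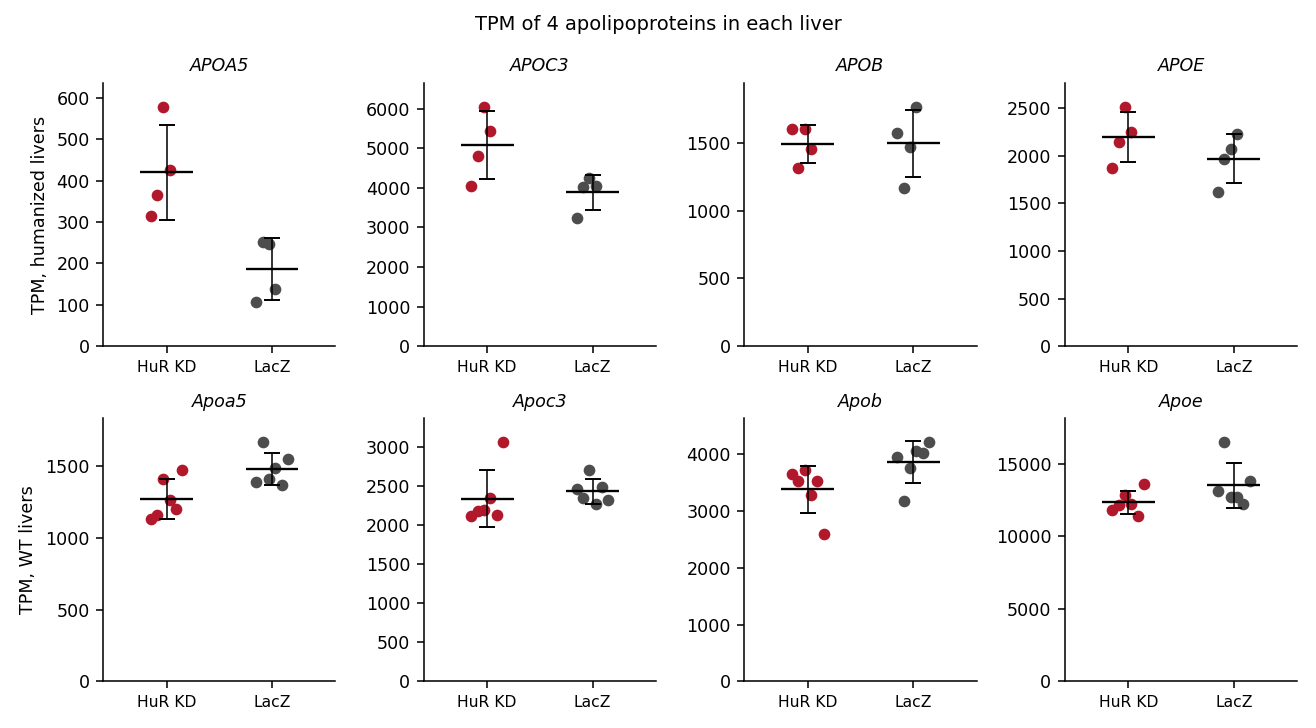
TPM of APOA5, APOC3, APOB and APOE in each humanized liver (top) and of the mouse genes in each WT liver (bottom); points are livers, lines the mean and bars the SD (n = 4 or 6 per group), on axes that start at 0. The 4 humanized HuR KD livers are above all 4 LacZ livers for APOA5 (314 to 578 against 106 to 252 TPM), and the other 7 panels show overlapping groups.

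The difference between the responses in the 2 sets was tested directly, as an interaction over 8202 genes paired by symbol, of which 9 were apolipoproteins. For APOA5 the humanized minus the WT response was 1.45 on the log2 scale (SE 0.28, 95% interval 0.87 to 2.04), with p = 3.67e-05 and an adjusted p of 0.0042 by limma and p = 0.00034 over 64680 joint groupings in the exact permutation test. It stayed past the adjusted threshold in all 34 settings, with an adjusted p between 0.00058 and 0.0241. The main interaction fit took 1 spread per gene over the 20 livers. Humanized livers varied more for APOA5 (SE 0.31 in their own fit and 0.08 in that of WT livers). Where they vary more, the limma SE and p-values of the interactions given here may be too small. For APOC3 the difference was 0.45 (SE 0.18), with p = 0.0229 by limma, an adjusted p of 0.169 and p = 0.034 in the exact test, and it lost the unadjusted threshold in 5 of the other 33 settings. The call for APOC3 ended without humanized HuR KD liver 3 and without humanized LacZ liver 1, at a difference of 0.36 in each case. The other 7 pairs did not pass, at differences between -0.11 and 0.28, except that APOE passed the unadjusted threshold in 3 settings, at 0.36 to 0.37 (median-of-ratios scaling, voom and rescaling to nuclear protein-coding genes). Called pairs made up 19.7% of all pairs, and 5.01% passed the adjusted threshold, so that 2 of 9 called was close to the share over all genes.

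Of the 9 human members tested, 8 were higher with HuR KD and 1 lower, against 5440 higher and 7298 lower among all 12738 human genes tested. Their median log2 fold change was 0.10 against -0.05 over all genes, and of the 8 only APOA5 was called. Of the 10 mouse members, 4 were higher and 6 lower, against 8568 and 6522 of all 15090 mouse genes, with a median of -0.08 against 0.03. Members of a set were measured in the same livers, and these counts were not tested. Of all human genes tested, 458 were called higher and 1003 lower as deposited, and 791 and 876 with median-of-ratios scaling, which moved the median of all genes to 0.0075. In WT livers 1371 were called higher and 1047 lower as deposited, and 1182 and 1278 with that scaling. The 10 members together made up 2.5% to 3.35% of the TPM in humanized LacZ livers and 2.8% to 3.43% in humanized HuR KD livers. Taken as a share of the TPM of nuclear protein-coding genes only, they made up 9.27%, 9.37%, 9.4% and 9.4% in the LacZ livers and 10.5%, 10.9%, 10.8% and 10.2% in the HuR KD livers, which do not overlap. In WT livers the share of nuclear protein-coding TPM was 7.43% to 8.71% with LacZ and 7.41% to 8.35% with HuR KD. These sums are a description and were not tested.

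Control levels are set side by side and were not tested, since the 2 tables were normalised apart. Of the TPM in humanized LacZ livers, 26.7% to 35.6% came from nuclear protein-coding genes and 31.4% to 51.7% from mitochondrially encoded genes, whereas the WT table held 75.7% to 77.6% from nuclear protein-coding genes and lists mitochondrially encoded genes at 0. Genes with names that begin with RN7SL or RN7SK made up another 19% to 34.9% in humanized LacZ livers, and 4.91% to 5.6% in WT LacZ livers. TPM were therefore also expressed as a percent of the albumin TPM of the same liver, which is a ratio of 2 genes within a liver, and rescaled so that the nuclear protein-coding genes of each liver summed to 1000000. These scales gave different orders between the species for 5 genes.

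In humanized control livers the order was APOA2 (7829 ± 1362 TPM, SD, n = 4), APOA1 (6338 ± 3069), APOH (4667 ± 1455), APOC3 (3888 ± 439.5), APOC1 (2533 ± 362), APOE (1971 ± 258), APOB (1496 ± 248), APOA5 (186 ± 75) and APOA4 (41.9 ± 49.2), followed by APOM. Only APOC3 and APOC1, APOB and APOA5, and APOA4 and APOM were neighbours whose ranges did not overlap. APOA2 had a median rank of 9 and APOB of 30 among all human genes of a liver, whereas APOA5 had a median rank of 218.

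In WT control livers the order was Apoa2 (17375 ± 1726 TPM, SD, n = 6), Apoe (13516 ± 1551), Apoa1 (10436 ± 2280.1), Apoc1 (6899.7 ± 779), Apob (3858 ± 364), Apoh (2583 ± 143), Apoc3 (2430.2 ± 159), Apoa5 (1479.9 ± 113), Apoa4 (1420.0 ± 1297) and Apom (422 ± 62.8). Neighbours whose ranges did not overlap were Apoa1 and Apoc1, Apoc1 and Apob, Apob and Apoh, and Apoc3 and Apoa5. Apoa2 had a median rank of 4.5 among all genes, and Apoa5 of 92.

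APOA5, APOE and APOA4 were higher in every WT control liver than in any humanized control liver on both scales. APOA5 was at 0.172% to 0.688% of albumin in humanized and at 2.6% to 3.7% in WT control livers, and at 345 to 947 and 1767 to 2201 rescaled TPM. APOE was at 2.62% to 5.36% and 23.2% to 31.5% of albumin, and at 5267 to 7377 and 15777 to 21786 rescaled TPM. APOA4 was at 0.0102% to 0.308% and 0.789% to 8.8% of albumin, and at 21.1 to 423 and 547 to 4618 rescaled TPM.

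For APOC1, APOB, APOA1 and APOA2 the result depended on the scale. As a percent of albumin each was higher in every WT control liver, with APOC1 at 3.49% to 6.57% in humanized and 11.6% to 15.1% in WT livers, APOB at 2.41% to 3.19% and 5.67% to 10%, APOA1 at 7.33% to 13.3% and 14.3% to 33.3%, and APOA2 at 8.92% to 25.8% and 29.5% to 38.7%. In rescaled TPM all 4 overlapped, with APOC1 at 7196 to 9878 and 7477 to 10006, APOB at 4390.1 to 5121 and 4196 to 5421, APOA1 at 10092 to 27348 and 9929 to 17446, and APOA2 at 18371 to 35439 and 20065 to 26220.1. APOH was higher in every humanized control liver on both scales, at 8.21% to 8.94% against 4.65% to 5.72% of albumin and at 11301 to 18084 against 2999 to 3488 rescaled TPM. APOC3 was higher in every humanized control liver in rescaled TPM (10563 to 15053 against 2955 to 3533) and overlapped as a percent of albumin (5.26% to 10.9% and 4.02% to 5.7%). In the humanized HuR KD livers APOA5 was at 1064 to 1827 rescaled TPM, which overlapped the 1490.2 to 2201 of the 12 WT livers. As a percent of albumin APOA5 did not overlap, at 0.567% to 1.31% in the humanized HuR KD livers and 2.06% to 3.7% in the 12 WT livers.

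**Figure D4:**
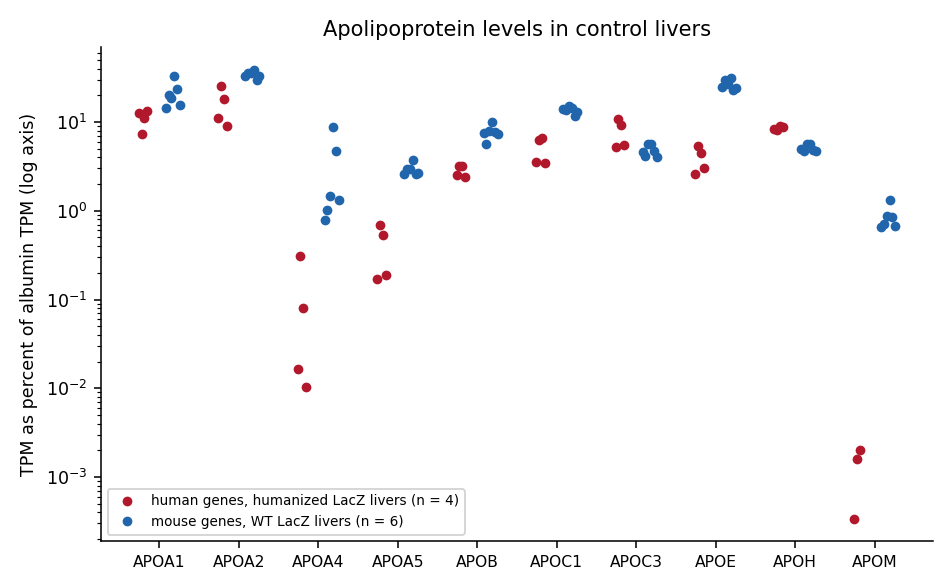
TPM of each apolipoprotein as a percent of the albumin TPM of the same liver, on a log axis, in humanized LacZ livers (red, n = 4) and WT LacZ livers (blue, n = 6), 1 point per liver. On this scale every mouse value is above every human one for 8 of the genes, APOH is the other way round and APOC3 overlaps, whereas 4 of the 8 overlap in rescaled TPM; APOM is drawn as listed, and 1 humanized liver with APOM at 0 is not drawn.

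Genes that act on the same particles were then counted in 5 lists, which with the members were chosen with earlier results of these data known. The counts are read against all genes tested, of which 11.5% were called in humanized livers (458 higher and 1003 lower) and 16% in WT livers (1371 higher and 1047 lower). Only 1 list gene passed the adjusted threshold in humanized livers and 1 in WT livers, both of assembly and editing. All other calls of list genes are unadjusted only. Among 8 tested human genes of assembly and editing, 1 was called higher and 2 lower, with a median log2 fold change of -0.17. MTTP, the transfer protein that loads lipid onto APOB, was at 108, 90, 113 and 127 TPM in the HuR KD livers and at 239, 201, 193 and 262 TPM in the LacZ livers. The groups did not overlap, the log2 fold change was -1.02 (SE 0.16), and it was the 1 list gene past the adjusted threshold in humanized livers (adjusted p = 0.0467 by limma, and 0.0204 to 0.260 over 21 settings, of which 10 were under 0.05). TM6SF2, which takes part in lipid loading of very low density lipoprotein, was at 15.5, 8.86, 11.5 and 7.91 TPM against 3.53, 4.41, 7.78 and 5.88 TPM, a log2 fold change of 0.91 (SE 0.26) with no overlap. SYNCRIP, an RNA-binding protein associated with the APOB editing complex, fell by 0.39 on the log2 scale (SE 0.13).

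In WT livers 1 of 11 tested genes of that list was called higher and 4 lower, against 16% called over all genes, with a median of -0.10. Mttp was at 171 to 237 TPM with HuR KD and at 239 to 272 TPM with LacZ, also without overlap, at a log2 fold change of -0.22 (SE 0.08, adjusted p = 0.207 by limma). The response of MTTP differed between the sets by -0.80 (SE 0.16, adjusted p = 0.0062 by limma). Tm6sf2 rose by 0.39 (SE 0.08, adjusted p = 0.0454 by limma), and its groups overlapped by 1 HuR KD liver at 37.8 TPM and the highest LacZ liver at 37.9 TPM. For TM6SF2 the responses differed by 0.51 (SE 0.23, adjusted p = 0.219 by limma), short of the adjusted threshold. Apobec1, the enzyme that edits Apob mRNA in mouse liver, was at 13.5 to 19.8 TPM against 20.1 to 25.3 TPM, a log2 fold change of -0.32 (SE 0.09, adjusted p = 0.111 by limma) with no overlap, and human APOBEC1, which is made in the intestine, was listed at 0 in every humanized liver. P4hb, the other subunit of the transfer protein, fell by 0.23 (SE 0.07) and Sar1b, of the vesicle coat that exports large particles, by 0.20 (SE 0.07).

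Among transcription factors of apolipoprotein genes, 3 of 22 tested human genes were called higher and 0 lower, near the 11.5% called over all human genes, at a median of 0.03. CREB3L3, a liver factor that activates APOA5 and other triglyceride genes, was at 28.8, 26.5, 31.2 and 21.2 TPM in the HuR KD livers and at 15.7, 17.8, 10.6 and 14.8 TPM in the LacZ livers, without overlap. Its log2 fold change was 0.84 (SE 0.19, adjusted p = 0.111 by limma, p = 0.029 in the exact permutation test). Without the 2 humanized livers that stood apart it was 1.04, with an adjusted p of 0.0438 by limma. Mouse Creb3l3 was at 374 ± 45.8 and 367 ± 18.6 TPM (SD, n = 6; 0.02, SE 0.08), and the difference between the responses was 0.82 (SE 0.18, adjusted p = 0.0119 by limma). RXRA, the partner of many lipid-sensing nuclear receptors, rose by 0.46 (SE 0.12, adjusted p = 0.161 by limma) without overlap, and MLXIPL, the carbohydrate response factor, by 0.36 (SE 0.16). HNF4A, a main activator of apolipoprotein genes in hepatocytes, was at 43.4 ± 7.04 and 45.5 ± 5.03 TPM (SD, n = 4; -0.08, SE 0.16). In WT livers 1 of 22 was called, Nr1d1, a circadian repressor of apolipoprotein genes, which rose by 0.39 (SE 0.11), and Hnf4a was at 488 ± 44.7 and 473 ± 43 TPM (0.05, SE 0.08).

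**Figure D5:**
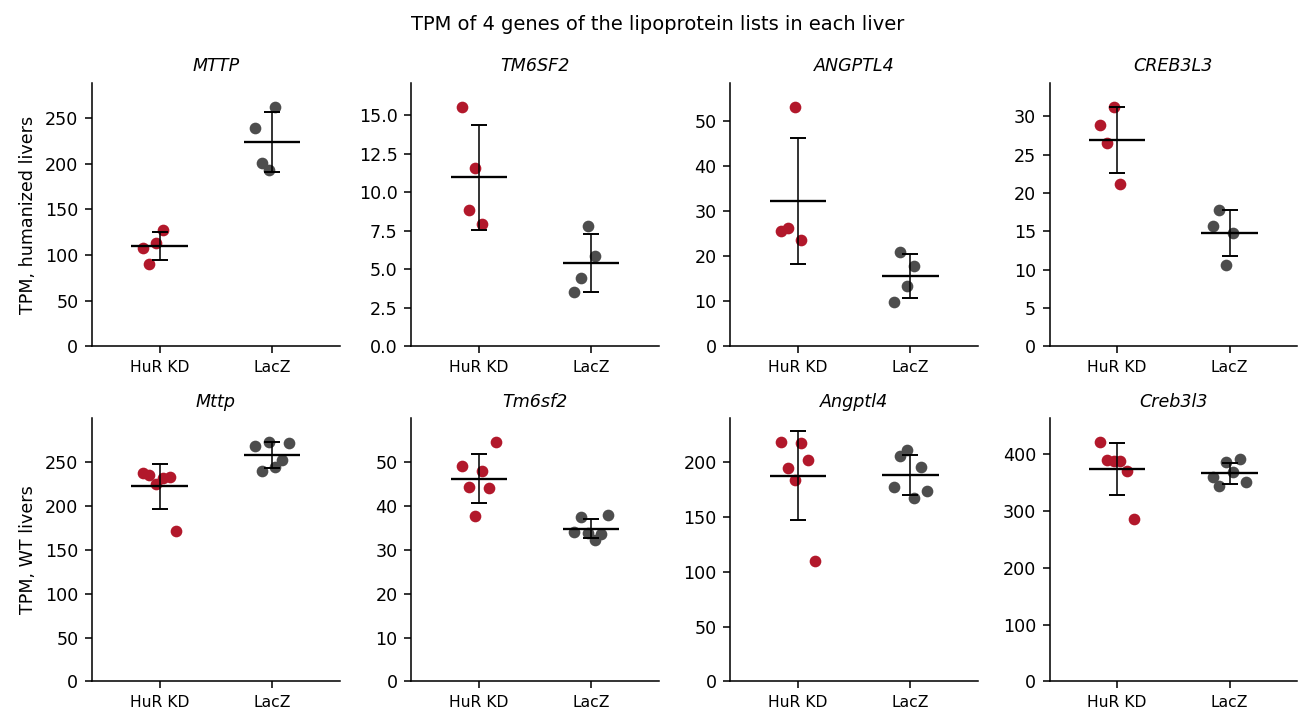
TPM of MTTP, TM6SF2, ANGPTL4 and CREB3L3 in each humanized liver (top) and of the mouse genes in each WT liver (bottom); points are livers, lines the mean and bars the SD, on axes that start at 0. In humanized livers all 4 genes separate the groups, MTTP with lower and the other 3 with higher HuR KD values, and in WT livers Mttp alone does so. TM6SF2 and ANGPTL4 were named because their humanized groups did not overlap, so that for them this contrast between the sets was built in by the choice.

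Of 10 tested human genes of lipolysis and remodelling, 1 was called, ANGPTL4, an inhibitor of lipoprotein lipase. It was at 25.6, 26.2, 53 and 23.5 TPM in the HuR KD livers and at 9.87, 21, 13.4 and 17.8 TPM in the LacZ livers, a log2 fold change of 0.97 (SE 0.30, adjusted p = 0.251 by limma) with no overlap. The list had a median of 0.21. LCAT, which esterifies cholesterol on high density lipoprotein, was at 37.6 ± 10.6 and 26.1 ± 10.2 TPM (0.54, SE 0.29, adjusted p = 0.515 by limma). LPL, the lipase itself, was listed at 0 in every humanized liver, and CETP, which exchanges cholesteryl ester between particles and is absent from mice, was at 0 in 6 and at 0.0269 and 0.362 TPM in 2. In WT livers 0 of 13 tested genes of this list were called by limma at an unadjusted p under 0.05, with Angptl4 at 188 ± 40.4 and 188 ± 18 TPM, Lcat at 759 ± 198 and 697 ± 55.2 TPM and Lpl at 7.1 ± 1.15 and 7.57 ± 1.42 TPM.

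Of 9 tested human genes of uptake, 1 was called higher and 1 lower. LIPA, the lysosomal lipase that frees cholesterol from particles taken up, rose from 24.4 ± 0.945 to 32.5 ± 3.78 TPM (0.39, SE 0.13) without overlap, and SORT1, a sorting receptor that binds APOB, fell by 0.35 (SE 0.15). In WT livers 4 of 11 were called higher and 1 lower, against 16% called over all genes. Among them, Lsr rose by 0.34 (SE 0.12), Sdc1 by 0.34 (SE 0.10) and Stab2 by 0.18 (SE 0.08), while Lipa fell by 0.24 (SE 0.10), each with an adjusted p above 0.05, and all had overlapping groups.

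Of the other apolipoproteins and particle proteins, 1 of 13 tested human genes was called higher and 2 lower, against 11.5% over all human genes, with a median of 0.14, and 0 of 8 tested mouse genes were called higher and 1 lower, with a median of -0.10. CLU, also called apolipoprotein J, fell by 0.44 (SE 0.14) from 390 ± 58.6 to 284 ± 5.26 TPM, PON1, an esterase of high density lipoprotein, fell by 0.31 (SE 0.12) in humanized livers and lost its call in 11 of the 20 other settings, and the constitutive serum amyloid A gene SAA4 rose by 0.89 (SE 0.38) with overlapping groups. Mouse Saa4 fell by 0.44 (SE 0.14). APOC2, the activator of lipoprotein lipase, was at 6.36 ± 2.09 and 8.31 ± 4.25 TPM in humanized and at 8.97 ± 2.05 and 9.64 ± 1.66 TPM in WT livers, with no call. It shares exons in people with the readthrough gene APOC4-APOC2, which was listed at 0.530 to 2.10 TPM, so that its human level is uncertain. LPA, the human gene for apolipoprotein(a), was at 1.6 to 5.79 TPM and 1.94 to 7.26 TPM (-0.09, SE 0.38).

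The genes whose profile over the livers was most like the mean profile of the members were named by the root mean square difference of centred log2(TPM + 1). Members that vary most weigh most in this mean, and APOA4 ranged 15.1-fold among humanized and 8.46-fold among WT controls. How far the matches rest on APOA4 was not tested. Over the 8 humanized livers and the 9 members tested they were GUK1 (0.0515), ATP5F1B (0.0527) and AKT1S1 (0.0621), against 0.211 for the size of the mean profile itself. Over the 12 WT livers and 10 members they were Rbp4 (0.0661), which encodes the plasma carrier of retinol, Cdo1 (0.0714) and Snupn (0.0748), against 0.131.

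Some markers of other cells were called with HuR KD in WT livers, where 16% of all genes tested were called. In both sets 0 markers of any list passed the adjusted threshold. Of 7 Kupffer cell and macrophage markers 4 were called lower, Clec4f by -0.75, Cd5l by -0.42, Adgre1 by -0.40 and Cd68 by -0.40 on the log2 scale, and the list summed to 259 to 451 TPM with HuR KD and to 369 to 504 TPM with LacZ. These cells also make Apoe, and their part in its mouse value was not tested. Of the other lists in WT livers, 2 of 6 tested stellate cell markers were called lower (Rgs5 and Lrat) at a median of -0.01, 1 of 3 T and NK cell markers lower (Gzma) at a median of -0.31, and 1 of 6 endothelial markers higher (Stab2) at a median of -0.0065. Of 4 hepatocyte markers 1 was called lower, Cyp2e1 (-0.36), while the list had a median of 0.06. In humanized livers, where 11.5% of all genes tested were called, 1 of 6 hepatocyte markers was called higher, CYP2E1 (0.51). The other 5 had differences below 0, and the list had a median of -0.22. Of 3 tested cholangiocyte markers 1 was called lower there, EPCAM (-1.17), at a median of -0.83, and the 5 in the table summed to 5.46 to 26.9 TPM with HuR KD and 11.6 to 35.9 TPM with LacZ. Enterocyte markers were included because the intestine makes APOA4 and APOB. In the humanized table they summed to 0.988 to 10.9 TPM with HuR KD and 1.72 to 10.9 TPM with LacZ, with 4 of the 5 at a mean below 1 TPM. The 4 in the mouse table summed to 194 to 359 TPM with HuR KD and 291 to 404 TPM with LacZ. Of these 4, 3 had a mean below 1 TPM, so that the mouse sum came almost wholly from 1 gene and does not describe the list. The part of enterocytes in the values of APOA4 and APOB was not tested.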

How the data were processed

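Total RNA of 8 humanized and 12 WT mouse livers was sequenced as paired-end, strand-specific libraries. The authors trimmed reads (cutadapt per the methods, Trim Galore per the labels), aligned them with HISAT2, using for humanized livers an index of both species joined, and counted genes with featureCounts on GENCODE v32 (human) and M23 (mouse). The authors deposited TPM values, of human genes only for humanized livers, scaled to 1000000 per liver in each table. The formula and gene lengths behind them are not given in the sources used here. Livers were taken as replicates of their labelled group, and p-values for humanized livers measure the spread between livers that may share a donor.

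Genes with a mean of at least 1 TPM were fitted as log2(TPM + 1) with limma 3.58.1 (lmFit and eBayes with trend) in R 4.3.3, separately for humanized and WT livers, and the interaction over genes paired by symbol. Fold changes on this scale understate changes of low genes. Single genes also had two-sided exact permutation tests over livers, 70 groupings for 4 against 4 and 924 for 6 against 6, with smallest p-values of 0.0286 and 0.0022. The fits were checked on simulated data. Steps in the low TPM gave whole reads (within 0.02) for 18701 of 18702 human and 25109 of 25110 mouse genes, and hence depth. Tables and plots were made with Python 3.11.15 and matplotlib 3.10.9.

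The members and gene lists were chosen with earlier results of these data known. Named beside the members were ELAVL1, ALB, the called genes of each list whose groups did not overlap (at most 4 per list), a few lipoprotein genes always given (some of which are not reported here), and the 3 genes most like the members. Other called list genes, cell markers and the neighbours of APOM were named after their values were seen. Alternatives covered the pseudocount, filter, scaling, variance trend, voom on recovered reads, liver weights, a replicate block and each liver left out. Rescaling to nuclear protein-coding genes and leaving out the 2 livers that stood apart in each set were chosen after seeing the data. Mouse positions came from GENCODE M21 on GRCm38, promoters from RefSeq on GRCm38.p6, and human sequence was not used here.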

Additional observations from a re-analysis of the deposited data

Results flagged for a closer look

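The levels of the members were examined for livers far from the rest of their group in 40 groups of 4 or 6 livers. Of these 4 stood out, where chance alone gives about 2. The members share the same livers, so that the groups are not independent and these counts cannot show an excess over chance. WT HuR KD liver 6 was the highest of its group for Apoc3 (3055 TPM) and for Apoh (2833 TPM). WT LacZ liver 2 was the highest of its group for Apoe (16494 TPM), and WT LacZ liver 4 was the lowest of its group for Apoh (2307 TPM). HuR KD liver 6 and LacZ liver 2 were also the WT livers with the lowest correlation with the others.

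The response to HuR KD differed between humanized and WT livers for APOA5 by 1.45 and for APOC3 by 0.45 on the log2 scale in the test of the interaction, of which the first passed the adjusted threshold.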

How the results depend on the processing

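APOA5 kept its direction and its unadjusted call in humanized livers (0.999 to 1.41 with each liver left out) and in the interaction (1.22 to 1.63) under every alternative run, and in WT livers (-0.26 to -0.18) in all but that without HuR KD liver 1 (-0.19). No member passed the adjusted threshold in humanized livers, and the number of members called there was 2 with median-of-ratios scaling, voom, liver weights or rescaling to nuclear protein-coding genes, 0 by adjusted p and 1 to 2 with each liver left out. In WT livers it was 2 with median-of-ratios scaling, 3 with liver weights, 3 without the 2 livers that stood apart, 0 by adjusted p and 0 to 3 with each left out. For the interaction it was 1 without a filter, with quantile normalization, without mitochondrial genes or by adjusted p, 3 (APOE added) with median-of-ratios scaling, voom or rescaling to nuclear protein-coding genes, and 1 to 2 with each left out. List genes called in humanized livers were 7 without mitochondrial genes (12 otherwise as deposited) and 9 to 15 with each left out, and 10 to 14 in WT livers. The members made up 4.70% of human control TPM without mitochondrial genes and 9.36% of nuclear protein-coding TPM (2.74% to 3.03% as deposited with each left out), and 7.87% for the mouse (5.93% to 6.11%). The total behind the 4.70% still holds the RN7SL and RN7SK genes.

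None of the following changes of sign passed the threshold, and their cause was not tested. In humanized livers APOA2 was at 0.027 (median-of-ratios), 0.092 (quantile), 0.023 (voom) and 0.041 (nuclear protein-coding), APOB at -0.0093 (liver weights), APOH at -0.012 (quantile), APOC2 at 0.078 (voom) and HNF4A at 0.0018 (quantile) and 0.013 (nuclear protein-coding). Without the 2 humanized livers that stood apart, APOA1 was at -0.010, APOB at -0.093 and HNF4A at 0.022. In WT livers Apoa2 was at -0.035 and Apoe at 0.023 (quantile), and Apoa4 at -0.19 (liver weights) and -0.16 (without the 2 livers that stood apart). The interaction was -0.029 for APOA1 (liver weights), 0.13 for APOA2 (quantile) and 0.032, 0.30 and 0.021 for APOA4 (median-of-ratios, liver weights, nuclear protein-coding). Without the 2 humanized livers it was -0.11 for APOA1 and 0.19 for APOA4, and without the 2 WT livers -0.014 and 0.23. With each liver left out, humanized values ran from -0.25 to 0.37 (APOA1), -0.13 to 0.045 (APOA2), -0.46 to 0.83 (APOA4), -0.10 to 0.094 (APOB), -0.13 to 0.24 (APOH), -0.14 to 0.037 (HNF4A), and -0.32 to 0.21 (LPA). WT values ran from -0.21 to 0.47 (Apoa4), -0.017 to 0.094 (Creb3l3) and -0.035 to 0.15 (Lcat), and interactions from -0.35 to 0.27 (APOA1), -0.58 to 0.71 (APOA4) and -0.040 to 0.32 (APOH).

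The replicate numbers of the labels did not pair the livers, since deviations of same-numbered livers correlated at -0.25 to 0.14 (humanized) and -0.14 to 0.21 (WT), and 1 of 4 and 2 of 6 HuR KD livers correlated best with their own number. With the replicate block, 1, 1 and 2 members were called in humanized livers, WT livers and the interaction, with APOA5 at 1.23, -0.22 and 1.45, and 10 humanized and 11 WT list genes were called. Genes past the adjusted threshold numbered 0 of all humanized genes (27 without the block), 17 WT genes (134) and 303 interactions (411). Human APOM held at most 10 reads in any liver, the deepest included, and was not tested.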
